A study of Drosophila melanogaster with 2 samples.

Results

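Camta, Cam and Fbxl4 are 3 genes of *Drosophila melanogaster* that were chosen by name: the transcription factor that was precipitated, its binding partner calmodulin, and a gene known as a target of the factor in photoreceptors. They are 3 of the 13945 annotated protein-coding genes of the 6 chromosome arms. From 5 kb upstream to 5 kb downstream of them lay 5 of the 4033 regions kept by the authors. Their filter used the irreproducible discovery rate (IDR), a measure of how alike regions rank in replicates. The data come from chromatin immunoprecipitation and sequencing (ChIP-seq) with an antibody against GFP on whole embryos of the line Camta-MiMIC-GFP, mixed in sex and aged 0 to 24 h. In this line an additional exon coding for enhanced green fluorescent protein (eGFP) sits in an intron of Camta, so that the protein is tagged at its own gene. The 2 biological replicates (labelled 2 and 3) form 1 group, both from this 1 line, and no second condition, so values are described without tests. Whole embryos of this age span mix all embryonic tissues and stages, and the lists do not say in which cells a region was bound.

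Camta belongs to the calmodulin-binding transcription activators, which bind DNA through a CG-1 domain, recognise a CGCG core in vitro, and are regulated by calmodulin. Calmodulin, the product of Cam, is the small calcium sensor that carries calcium signals to kinases, phosphatases, channels and myosins. In fly photoreceptors Camta is needed for rapid deactivation of rhodopsin, and Fbxl4, an F-box protein of the kind that selects substrates for SCF ubiquitin ligases, is a gene through which it acts there. The lists used here come from embryos, not from eyes.

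Every one of the 3 genes had at least 1 IDR region in its window, as did 47.2% of all protein-coding genes (95% Wilson interval 46.4 to 48.1), so presence alone does not set them apart. Camta and Cam had 2 each, and Fbxl4 had 1. Longer windows hold more regions: of 1521 genes whose window was 0.5 to 2 times as long as the 44031 bp of Camta, 36.4% had at least 2. The same share was 29.3% of 3334 genes around the 29412 bp of Cam, and 45.6% of 12728 genes with windows like the 13511 bp of Fbxl4 had at least 1. An IDR summit lay within 500 bp of an annotated start site, here called a promoter, at Camta and Fbxl4 but not at Cam, and at 18.8% of all protein-coding genes. Cam instead held IDR summits inside the gene with none at its start sites, an arrangement found at 4.24% of protein-coding genes. That share covers genes of every length and was not matched to the 19412 bp of Cam, so it does not show that Cam is unusual.

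Each list gives a signal value and a q value per region, both made by the authors. How the signal was scaled is not stated, and levels are therefore compared within a list only. The IDR list held the 4033 strongest of the 30000 pooled relaxed regions, from a signal value of 95.3405 up to 2218.38, with a median of 146.704. A place in it thus follows the pooled signal value. It does not by itself show that both replicates ranked a region alike. Relaxed lists are long by construction and include background, so a place in them alone does not show binding. The 3 windows held 23 pooled relaxed regions, 27 in replicate 2 and 20 in replicate 3. Of these, 8, 8 and 7 had a q value of 0.05 or less. The same share over each whole list is not given here, so the counts describe these windows only. Depth is unknown because the lists give no read counts.

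**Figure D1:**
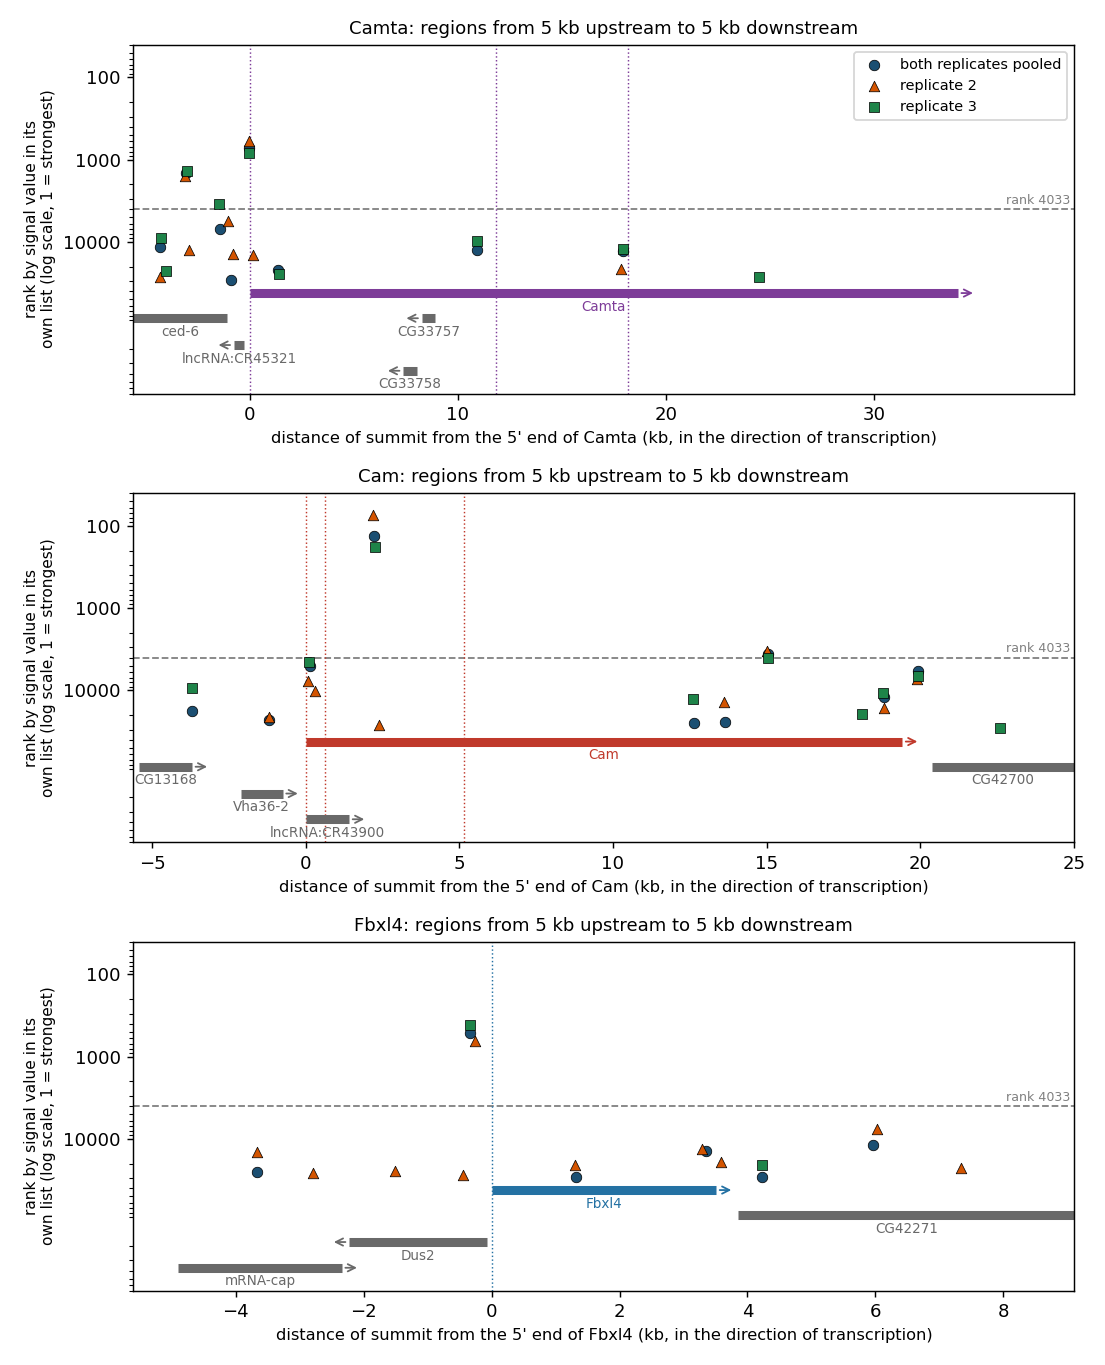
Rank by signal value (log scale, 1 is the strongest) of every relaxed region at Camta, Cam and Fbxl4 against the distance of its summit from the 5′ end of the gene in kb, for the pooled list (circles), replicate 2 (triangles) and replicate 3 (squares). Bars are genes with arrows in the direction of transcription, dotted lines are start sites of the named gene, and the dashed line marks rank 4033. The regions that rank above it in all 3 lists lie at 5 places, 2 at Camta, 2 at Cam and 1 at Fbxl4.

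The factor's own gene had an IDR region at its first promoter. Camta (FBgn0287478) lies on 2R from 9446046 to 9480076 on the + strand in dm6, with 7 annotated transcripts and 3 start sites. The pooled region from 9445782 to 9446205 had its summit at 9445994 in intergenic sequence, 52 bp upstream of the first start site, with a signal value of 265. It ranked 714 of 4033 IDR regions, and 428 of the 2148 whose summit lay at a promoter. Its signal value was 1.78 times the median of that class, 148.916.

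The Camta promoter region was placed almost identically in both replicates. In replicate 2 it ran from 9445780 to 9446199 (signal value 114, rank 598), and in replicate 3 from 9445782 to 9446197 (signal value 150, rank 842). Both replicate summits fell on the same base, 9445990, 4 bp from the pooled one. The start of a non-coding RNA gene on the other strand, lncRNA:CR45321, lies at 9445784, 210 bp from the summit, so that the 2 genes start head to head 262 bp apart and the region cannot be given to Camta alone. Starts of at least 2 genes lay within 500 bp of 41.7% of promoter IDR summits.

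The second IDR region at Camta lay in its neighbour. Upstream of Camta, ced-6, which encodes an adaptor protein for the engulfment of dying cells, holds a region from 9442782 to 9443205 with its summit at 9442994 in an intron, 3052 bp upstream of the 5′ end of Camta. The closest start site is 1 of ced-6 itself, 1428 bp away. The pooled signal value was 181, rank 1436 of 4033 and 455 of the 1325 intronic IDR summits, 1.25 times the intronic median of 144.935. Introns held 32.9% of all IDR summits. Replicate 2 placed the summit at 9442917 with signal value 68.1 and rank 1594, and replicate 3 at 9443007 with 114 and rank 1383. Ranks were thus close while the summits were 90 bp apart, a distance reached by 11.7% of IDR regions.

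The later start sites of Camta had weak regions at most. The start site at 9464228 had a pooled relaxed summit 231 bp upstream, with a signal value of 44.7, rank 12890 of 30000 and a q value of 0.333. Replicate 3 gave a summit 229 bp upstream at rank 12197 of 29279, and replicate 2 gave one 332 bp upstream at rank 21274. Near the start site at 9457885 the closest pooled summit was 911 bp upstream, with a signal value of 45.3 and rank 12599. Replicate 3 had the same site at rank 9900, and the nearest summit in replicate 2 was 6011 bp away. The first start site of Camta is therefore the 1 of 3 with an IDR region.

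The remaining pooled regions at Camta were weaker than any IDR region. One lay 331 bp downstream of the ced-6 start site at 9444937, with its summit at 9444606, a signal value of 64.7 and a q value of 0.0387. Replicate 3 ranked that site at 3460, above rank 4033, with its summit at 9444561. Replicate 2 had its nearest summit at 9444995, on the other side of the ced-6 start, at rank 5537. The other pooled regions were in ced-6 at 9441705 (signal value 47.9), between the genes at 9445136 (27.7), and in the first part of Camta at 9447418 (33.3). The summits at 9441705 and 9445136 lay 139 and 199 bp upstream of annotated ced-6 start sites, and so at promoters. Outside the window, ced-6 also had an IDR summit at a promoter, with a signal value of 131.995. Replicate 2 had the site at 9441705 with its summit at 9441708, rank 26812. Replicate 3 had the sites at 9441705 and 9447418 with summits at 9441762 and 9447428, ranks 8888 and 24391. The pooled region at 9445136 overlapped the replicate 2 region at 9444995 named above and a weaker one at 9445208, rank 14263. Further regions of replicate 2 had summits at 9443131 and 9446194, ranks 12486 and 14447, and overlapped the 2 IDR regions. Replicate 3 also listed 9442018, rank 22863, overlapping the pooled region at 9441705, and 9470501, rank 26969, which overlapped no pooled region. CG33757 and CG33758, 2 genes inside Camta, had no listed summit at their promoters.

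The partner gene Cam carried the strongest region of the 3 genes, in an intron and away from its start sites. Cam (FBgn0000253) lies on 2R from 12259398 to 12278809 on the + strand, with 5 transcripts and 3 start sites at 12259398, 12260032 and 12264544. The pooled region from 12261496 to 12261794 had its summit at 12261629 and a signal value of 561, rank 133 of 4033. That summit is 2231 bp downstream of the first start site, 1597 bp downstream of the second and 2915 bp upstream of the third. Among the 1325 intronic IDR summits it ranked 31, in the top 2.34%, at 3.87 times their median.

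The Cam intron region was narrower than most and strong in both replicates. Replicate 2 listed it from 12261508 to 12261765 with a summit at 12261594, a signal value of 268 and rank 73. Replicate 3 listed it from 12261555 to 12261765 with a summit at 12261642, a signal value of 303 and rank 181. The ranks differ by 2.48 times, more than the median of 1.42 over the 4029 IDR regions that overlap a region in both replicate lists, and 9.66% of those differ by at least as much. Its pooled width was 299 bp. Of the IDR regions, 3239 had the usual width of 424 bp with a median signal value of 132.075, 774 were narrower with a median of 346.27, and 20 were wider with a median of 752.341. Regions of other than the usual width, wider or narrower, thus had higher median signal values.

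A second IDR region lay far downstream in the 3′ UTR of Cam. Its pooled bounds were 12274233 and 12274656, with the summit at 12274445, a signal value of 102.7 and a q value of 0.000419. It ranked 3582 of 4033, close to the weakest region kept, and 23 of the 26 IDR summits in 3′ UTRs, at 0.77 times the median of that class. Such summits made up 0.645% of the IDR list. Replicate 2 had the summit at 12274426 with signal value 45.0391 and rank 3340, and replicate 3 at 12274436 with 58.2 and rank 4003. Both replicates thus placed it within 10 bp of each other and ranked it above 4033, in replicate 3 only just.

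At the first start site of Cam, a region fell short of the IDR list. The pooled summit at 12259528, 130 bp downstream of the start, had a signal value of 80.0172, rank 5130 and a q value of 0.00439. A non-coding RNA, lncRNA:CR43900, starts 119 bp from the same summit. Replicate 3 gave a summit 128 bp downstream with signal value 53.9, rank 4478 and a q value of 0.00436. Replicate 2 gave a summit 88 bp downstream with signal value 27.8, rank 7675 and a q value of 0.0528, and another at 12259710 with rank 10318. The site was present in every list but ranked below 4033 in each. A pooled relaxed summit of any strength lay at a promoter of 53.2% of protein-coding genes.

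**Figure D2:**
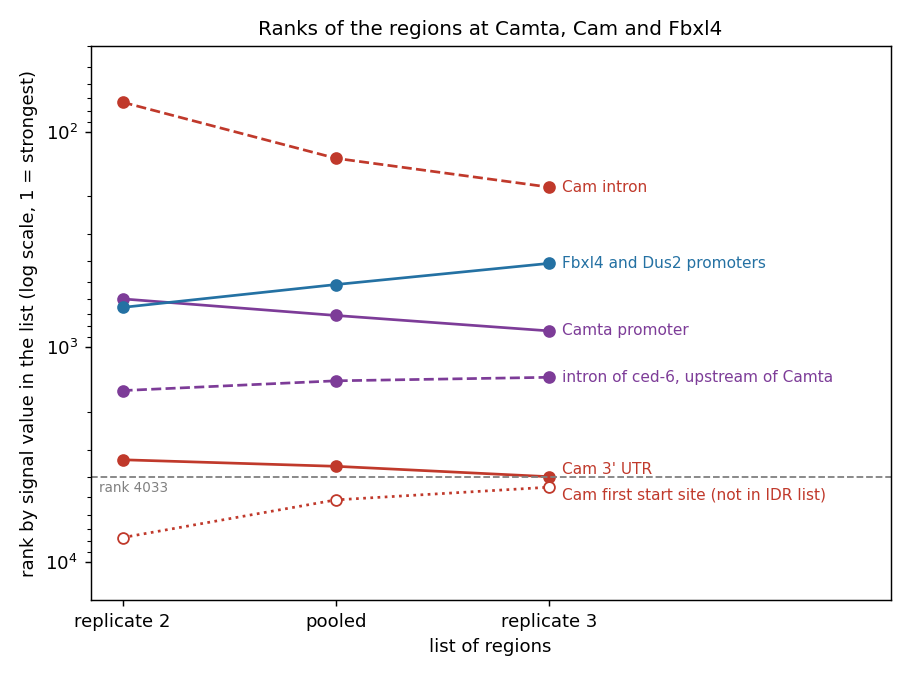
Rank by signal value in its own list (log scale, 1 is the strongest) of the 5 IDR regions at Camta, Cam and Fbxl4 (filled points) and of the region at the first start site of Cam (open points), in replicate 2, the pooled list and replicate 3. The lines join values of the same region: the Cam intron stays on top, from rank 73 to 181. The 3′ UTR region stays above rank 4033 (dashed), from rank 3340 to 4003.

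Other pooled regions at Cam included 1 between Cam and its downstream neighbour CG42700. It had its summit at 12279337, 434 bp upstream of the CG42700 start, with a signal value of 73.0 and a q value of 0.0121. It ranked 5889 in the pooled list, 7227 in replicate 2 and 6654 in replicate 3. The other 5 were at 12255689, 12258214, 12272025, 12273050 and 12278214, with signal values from 30.9317 to 46.6. Replicate 2 had summits at 12258219, 12273025 and 12278214, at ranks 20935, 14020 and 16551, and replicate 3 at 12255701, 12272009 and 12278186, at ranks 9452, 12919 and 10900. Replicate 2 also listed a weak region with its summit at 12261795, overlapping the strong intron region, at rank 26199. Replicate 3 also listed 12277491 and 12281991, overlapping no pooled region, at ranks 19278 and 28704. For the start site at 12264544 the nearest summit was the intron one in the pooled list and in replicate 3, 2915 and 2902 bp upstream, and 12261795 in replicate 2, 2749 bp upstream. Upstream, Vha36-2, a subunit gene of the vacuolar proton pump, and CG13168 had no pooled summit at their promoters.

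The photoreceptor target Fbxl4 (FBgn0030555) lies on X from 14234413 to 14237923 on the − strand, with 1 transcript and 1 start site. Its 1 IDR region, from 14238050 to 14238473, lay just upstream with the summit at 14238262 and a signal value of 316. It ranked 513 of 4033, and 315 of 2148 at promoters, at 2.12 times the promoter median. The summit is 339 bp upstream of the Fbxl4 start. It is closer to Dus2, whose name stands for dihydrouridine synthase, an enzyme family that modifies transfer RNA. Dus2 starts on the opposite strand at 14237988 and at 14238315, and the summit lies 274 bp downstream of the first of these and 53 bp upstream of the second, within the Dus2 5′ UTR. Fbxl4 and Dus2 thus share the region, and the lists do not tell which of the 2 promoters it belongs to.

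The sequence between the start sites of Fbxl4 and Dus2, and the bases under the summits, show what these positions look like (RefSeq sequence of the Release 6 genome, dm6 coordinates, + strand). The first line is the whole 64 bp from the base after the Fbxl4 start to the base before the first Dus2 start; capitals mark a DRE, TATCGATA, the DNA replication-related element found in many broadly active fly promoters. The next 2 lines are 30 bp around the pooled summit and the summit of replicate 2, shown because the replicates disagree here. The last line is the part of the region that codes for Dus2, with capitals on the CGCG core that Camta recognises in vitro.
Between the start sites, chrX:14237924-14237987: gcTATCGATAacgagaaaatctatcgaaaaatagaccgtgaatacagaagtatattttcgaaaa
Pooled summit, chrX:14238247-14238276: tggcgtagaaatagtaccttgcatgacggc
Summit in replicate 2, chrX:14238161-14238190: aaatatgcaaaaatattcactagcacaaat
Coding part of the region, chrX:14238374-14238473: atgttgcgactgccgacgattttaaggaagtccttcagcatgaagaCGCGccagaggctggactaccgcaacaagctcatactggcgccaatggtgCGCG

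The DRE is at X 14237926 to 14237933, 3 bp from the Fbxl4 start, 55 bp from the first Dus2 start and 329 bp from the pooled summit, each to its nearest base. It lies outside the pooled region and outside the region of each replicate. The whole 64 bp lies outside the pooled region, which starts at 14238050. Among windows of the same 64 bp just upstream of all 13945 protein-coding genes, 5.08% held TATCGATA. The letters CGCG were not in the 64 bp, and 13.0% of the same windows held them. Within the IDR region CGCG occurred at 14238360, 14238420 and 14238470, whose centres are 99.5, 159.5 and 209.5 bp from the summit. The first of these is in the Dus2 5′ UTR and the others are in the coding exon printed above. None lay within 50 bp of the summit.

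The replicates differed at Fbxl4 in width and summit more than at the Camta promoter. Replicate 2 listed 14237966 to 14238385 with a summit at 14238176, 253 bp upstream of the Fbxl4 start (signal value 109, rank 655). Replicate 3 listed a narrow region of 115 bp, 14238190 to 14238304, with a summit at 14238254, 331 bp upstream, a signal value of 217 and rank 409. The summits are 78 bp apart, a distance reached by 15.0% of IDR regions, and the ranks differ by 1.60 times, which 37.4% reach. The replicate 2 region also spans the last bases of the spacer between the genes, while that of replicate 3 lies wholly inside the Dus2 5′ UTR.

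**Figure D3:**
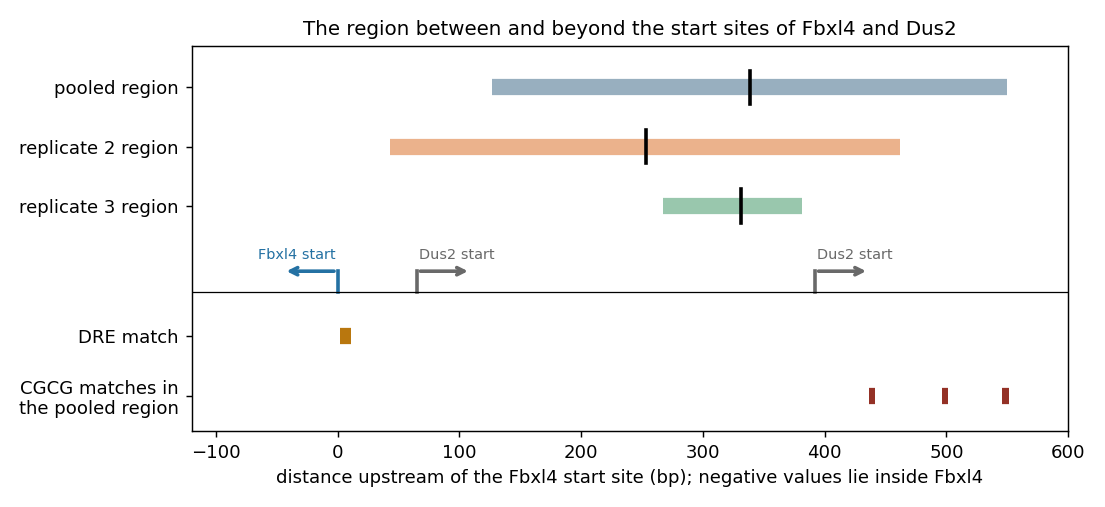
The interval between Fbxl4 and Dus2, as distance in bp upstream of the Fbxl4 start, with the start sites (arrows in the direction of transcription), the region of each list (bars), its summit (black ticks) and the positions of the DRE and CGCG. The summits lie 253 bp upstream in replicate 2, 331 in replicate 3 and 339 in the pooled list, all inside the Dus2 5′ UTR.

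Within Fbxl4 itself no list gave a strong region. The 5 other pooled regions of the window had signal values from 27.8 to 46.9, ranks from 11853 to 29286 and q values from 0.272 to 0.882. They lay in a coding exon and an intron of CG42271 at 14231957 and 14233699, in the 3′ UTR of Fbxl4 at 14234568, in its coding exon at 14236611, and in mRNA-cap, the gene of the mRNA capping enzyme, at 14241590. The summit at 14233699 is 367 bp downstream of the CG42271 start, and so also at its promoter. Replicate 2 listed 10 regions in the window and replicate 3 only 2. Of those in replicate 2, the region at 14231895 ranked 7505. The 8 others besides the strongest region at the IDR site ranked from 13482 to 27344. The weakest of these, with its summit at 14238375, also overlapped the IDR region. The second region of replicate 3, at 14233702, ranked 20845. At a q value of 0.01 or less, each list held only the region at the IDR site, near the Dus2 starts.

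Summits of the 5 IDR regions can be set against all IDR regions. Over the whole list, the median distance from the pooled summit was 13 bp in replicate 2 (interquartile range 4 to 40, n = 4030) and 10 bp in replicate 3 (3 to 27, n = 4032). In replicate 2 the Fbxl4 region, at 86 bp, and the ced-6 intron region, at 77 bp, were among the more displaced, with 10.8% and 12.0% of IDR regions at least as far. In replicate 3 the 5 distances ran from 4 to 13 bp. Regions of the replicates covered at least 50% of the pooled region in both lists for 4 of the 5. The exception was Fbxl4, where the narrow region of replicate 3 covered 27.1% of the pooled one although its summit was 8 bp away. How many of all IDR regions pass the same 50% rule is not given here, so how common such an exception is stays unknown.

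**Figure D4:**
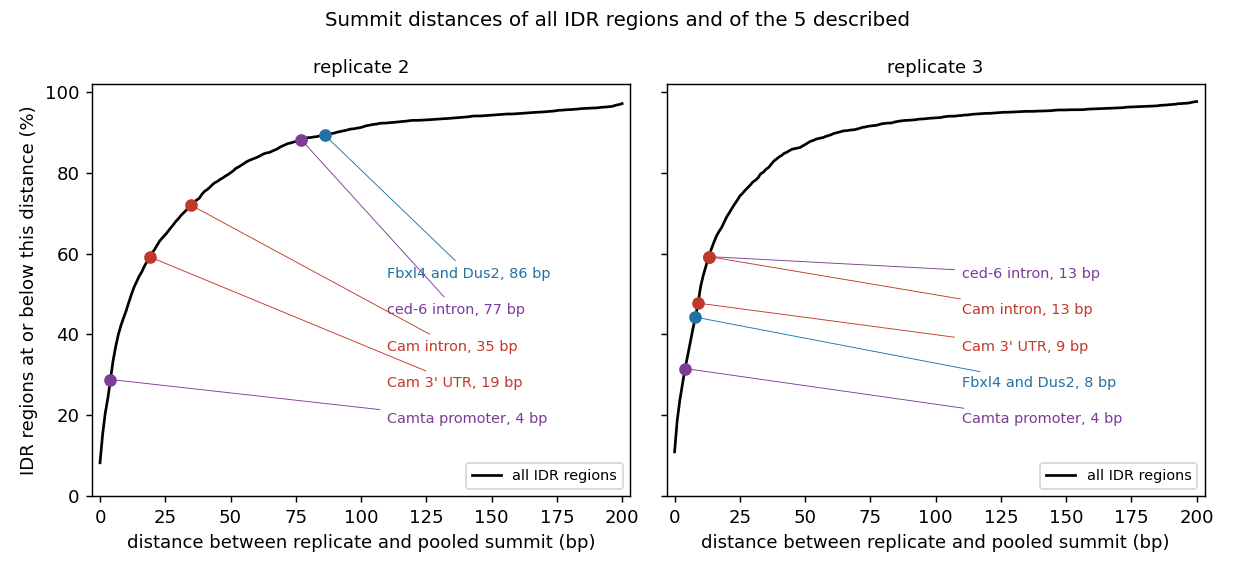
Share of all IDR regions (%) whose replicate summit lies at or below a given distance in bp from the pooled summit, for replicate 2 and replicate 3, with the 5 regions at Camta, Cam and Fbxl4 as points. The Fbxl4 region lies at 86 bp in replicate 2 and at 8 bp in replicate 3, and the Camta promoter at 4 bp in both.

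The letters CGCG stood within 50 bp of 1 of the 5 IDR summits, the Cam 3′ UTR, 8.5 bp from it. They did so at 11.6% of all IDR summits (95% Wilson interval 10.6 to 12.6) and at 18.6% of the 25098 pooled relaxed summits whose regions overlap no IDR region. Motifs were searched on both strands, and CGCG, GCGC and CCGG each read the same on both. GCGC, which has the same composition and can overlap CGCG, was within 50 bp of 17.8% of IDR summits and 26.4% of those other summits, and of 3 of the 5: Cam intron, Cam 3′ UTR and Fbxl4. CCGG, the other control, was near 8.03% of IDR summits and 20.2% of the others, and near the Cam 3′ UTR summit alone among the 5. CGATA, the core of the DRE, was near 17.5% of IDR summits and 12.3% of the others, and near the ced-6 intron and Cam intron summits. Over whole regions, CGCG occurred in 4 of the 5, against 45.1% of IDR regions. The exception was the Camta promoter, whose nearest CGCG was 910.5 bp from the summit. GCGC occurred in the whole Cam intron, Cam 3′ UTR and Fbxl4 regions. Shares over whole regions for the control motifs and for the other relaxed regions are not given here, so the 4 of 5 shows no excess of CGCG.

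Base composition differed among the 5 summits. In the 101 bp around it, the Cam 3′ UTR summit had 59.4% G and C, the Cam intron 48.5% and Fbxl4 44.6%. These 3 exceeded the upper quartile of all IDR windows, 41.6%. The Camta promoter had 34.7%, equal to the median of all, and the ced-6 intron 35.6%. The share of windows with letters such as CGCG moves with base composition, and its part in these counts was not tested.

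The regions ranked just beside those of the 3 genes show what sort of site has the same signal value in the pooled list. Next to the Camta promoter stood promoter regions of Vinc, the gene of the cytoskeletal linker vinculin (265.158, rank 713), and of CAP (264.87, rank 715). Beside the Cam intron stood an intron of Reph (561.831, rank 132) and the promoter region of bbx, which also lies in waw (559.87, rank 134). Beside Fbxl4 stood an intron of the forkhead gene CHES-1-like (316.209, rank 512) and the 5′ UTR of eas, the gene of an ethanolamine kinase (315.378, rank 514). In replicate 2, Reph ranked 129 and bbx 198, against 73 for Cam, and in replicate 3 they ranked 133 and 103 against 181. Likeness here is the pooled signal value alone, in 1 list made from 2 replicates.

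**Figure D5:**
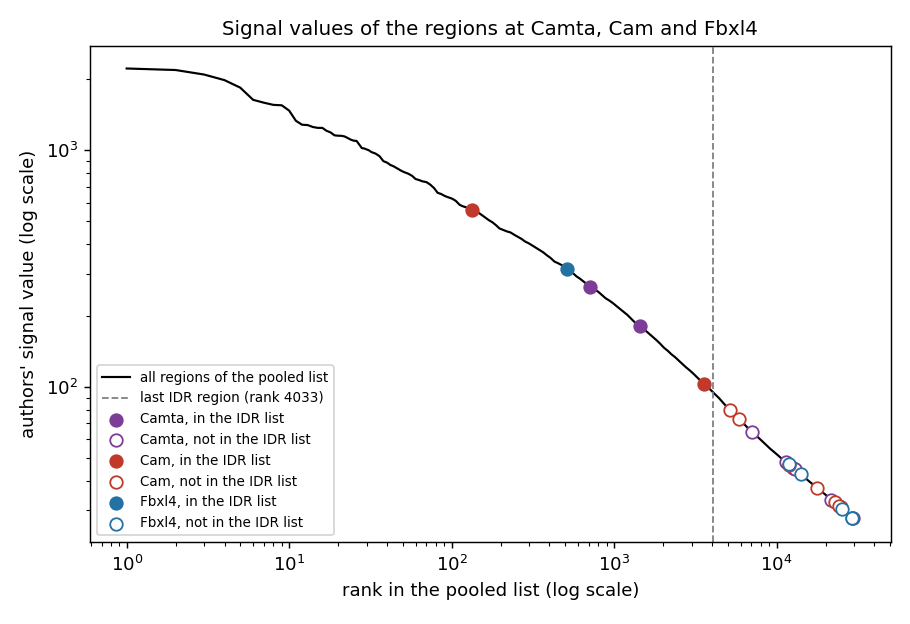
Pooled signal value (log scale) against rank (log scale) for the relaxed list (line), with the regions of Camta, Cam and Fbxl4 as points, filled where in the IDR list, and the end (dashed) of the IDR list at rank 4033. The 5 IDR regions span signal values from 102.7 to 561, and the other 18 pooled regions of the 3 genes lie between 27.7 and 80.0172.

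Genes related to the 3 by function were also looked up. Of 13 genes for calmodulin-regulated proteins and relatives, such as kinases, calcineurin subunits and the adenylate cyclase rut, 0 had an IDR summit at a promoter, against the 18.8% of all protein-coding genes. An IDR region lay in the window of 3 of the 13, CanB2, Pp2B-14D and rut, against 47.2% of all protein-coding genes. Of 13 photoresponse genes, 2 had an IDR summit at a promoter, beside the same 18.8%. The stronger was rdgC, the calcium-dependent rhodopsin phosphatase (signal value 458, rank 211), 370 bp upstream of its start. Galphaq, the G protein subunit that couples rhodopsin to phospholipase C, had 168.0 and rank 1634, 141 bp upstream of its start and near a start of CG45086. Windows of 5 of the 13 held an IDR region, namely Galphaq, inaD, ninaE, norpA and rdgC, beside the same 47.2%.

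Of 5 genes listed for the SCF ubiquitin ligase, 1 had an IDR summit at a promoter, beside 18.8% of all protein-coding genes. This was slmb, itself an F-box gene like Fbxl4, and the other listed genes had none. Its summit ranked 3004 with a signal value of 115.29, 22 bp upstream of its start and near a start of CG5793. Windows of Nedd8, SkpA and slmb held an IDR region, which is 3 of 5 against 47.2% of all protein-coding genes. These lists are short, and their counts describe these genes only.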

How the data were processed

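Peak lists from ChIP-seq of Camta-eGFP were used: a relaxed list for each replicate and for both pooled, and the optimal IDR list, all on dm6. The description names an anti-GFP antibody while a label names the antibody as Camta, and the description was followed. Each relaxed list was made from alignments and 1 further file common to all, taken here to be the control. The sources used here do not name the aligner or peak caller. The signal values are the authors' own, as deposited. The q values were deposited by the authors as −log10 values, and summits as offsets in bases; positions are printed counted from 1. Lists on dm3 were not used.

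The members and gene lists were chosen with earlier results of these data known. Genes were those of Ensembl release 115 (BDGP6.54), without pseudogenes or transposable elements, and sequence came from the RefSeq Release 6 assembly; both have dm6 coordinates. Any overlap of a region with the window from 5 kb upstream to 5 kb downstream counted. A summit within 500 bp of any annotated start was called promoter, and others by the annotated exon, UTR, intron or intergenic sequence they fell in. A pooled region counted as found in a replicate where 1 region covered at least 50% of it. For ranks and summits the strongest overlapping region was used, a choice made after the Fbxl4 region was seen. Shares have Wilson intervals at 95%, which cover only the number of genes or regions. No test was made.

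Genes named are Camta, Cam and Fbxl4, genes with a start within 1000 bp of their IDR summits or overlapping their windows, those of the IDR regions ranked next to the strongest of each, and up to 3 bound members of each list. Genes in whose windows an IDR region lay are named besides. Alternatives covered the window, the threshold, the promoter distance, the overlap, the motif window and each replicate alone. The functions were tested on simulated data. Software was pandas 2.3.3, NumPy 2.4.6, SciPy 1.17.1 and matplotlib 3.10.9 under Python 3.11.15.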

Additional observations from a re-analysis of the deposited data

How the results depend on the processing

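Of 58 recomputed values, 40 stayed within 1.5 times the reported count (for the share of genes, within its interval) and 18 moved. With 2 kb on each side the IDR count at Camta fell from 2 to 1, since the ced-6 intron is farther away. With 10 kb that count was 3, and it was also 3 in replicate 3 alone, both within 1.5 times. The stronger 2016 IDR regions left 1 at Cam, the intron region. With q values of 0.05 and 0.01 or less, relaxed counts became 3 and 2 at Camta, 4 and 3 at Cam, and 1 and 1 at Fbxl4. At Fbxl4 the relaxed count was 10 with 10 kb, and 2 to 10 in single replicates. A promoter distance of 250 bp left 0 IDR summits at Fbxl4. The share of genes with an IDR region, 47.2%, became 34.2% with 2 kb, 60.8% with 10 kb and 29.3% in the stronger part of the list, and 45.8 to 47.1% in single replicates. CGCG lay wholly within 100 bp of 2 of the 5 summits, and in 4 whole regions. The Fbxl4 match, centred 99.5 bp from its summit, was not counted because its end lies beyond 100 bp. For IDR counts, promoter summits and the share of genes, leaving out a replicate meant taking the 4033 strongest regions of the other. For relaxed counts it meant taking the whole list of the other. No paired analysis was possible because there is 1 group.

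Depth, read counts and the scaling of the signal are unknown, 2 replicates give no usable error for a rank, and relaxed regions below the IDR list cannot be told apart from background one by one. At a head-to-head pair the lists cannot assign a region to 1 gene.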
